A study of Homo sapiens with 30 samples.

Results

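The RAN cycle, importins and exportins were followed through 10 genes, chosen by name as a set that moves cargo between nucleus and cytoplasm: RCC1, RAN, RANBP1, KPNB1, KPNA2, IPO4, IPO5, XPO1, XPO5 and CSE1L. Each has 1 entry among the 18132 of the RNA-seq table and 1 among the 20582 of the PRO-seq table. The cells were G401, a line from a malignant rhabdoid tumour of the kidney. In the engineered line, DTMYC, c-MYC was delivered by lentivirus with an HA tag and the FKBP12F36V degradation module at its N terminus, and endogenous MYC was removed with CRISPR-Cas9. All DTMYC groups, controls included, therefore depend on the tagged protein, and neither the promoter that drives it nor whether the line is 1 clone is given in the sources used here. dTAG47 recruits proteins carrying that module for degradation, and parental G401 cells, which lack the tagged MYC, show what the compound does without it.

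The groups used here were DTMYC cells in 500 nM dTAG47 and DTMYC cells in DMSO, for MYC ChIP-seq after 4 h (3 and 2 libraries), PRO-seq after 4 h (2 and 2), ATAC-seq after 24 h (3 and 3) and RNA-seq after 24 h (3 and 3), and parental cells in 500 nM dTAG47 and in DMSO for RNA-seq after 24 h (3 and 3). The series holds 30 samples, of which 3 IgG ChIP-seq libraries were not analysed here. The labels number replicates without saying that they came from separate cultures, so p-values measure the spread between these libraries, which may be technical.

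Transport through the nuclear pore is given its direction by RAN, a small GTPase. RCC1, the exchange factor bound to chromatin, loads RAN with GTP inside the nucleus, and RANBP1 works with the GTPase-activating protein in the cytoplasm where the GTP is hydrolysed. Importins release their cargo in the nucleus when RAN-GTP binds them, exportins leave the nucleus only with RAN-GTP and cargo together, and MYC is known as an activator of genes for growth and biosynthesis.

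RNA-seq libraries held 27854207 to 54633745 counts, PRO-seq libraries held 18209879 to 23256313 counts in gene bodies and 1216928 to 1632084 near promoters. The markers SMARCA4 and VIM averaged 474 CPM or more (CPM, counts scaled to a common library size) in every RNA-seq group, and the haematopoietic, endothelial and mature kidney markers listed for the check averaged at most 0.411 CPM in any group. MYC mRNA averaged 1410 ± 64.7 CPM in DTMYC dTAG47 libraries and 1366 ± 46.2 CPM in DTMYC DMSO libraries (SD, n = 3 each). The compound acts on the protein, so this level does not check depletion. In parental cells MYC averaged 235 ± 7.80 CPM in dTAG47 and 235 ± 28.2 CPM in DMSO, so the DTMYC DMSO level was 5.82-fold the parental DMSO level (log2 difference 2.54 ± 0.09, SE; edgeR's quasi-likelihood test, adjusted p = 1.23e-10). Parental DMSO library 3 stands apart: the SD over genes of its log2 difference from the other parental DMSO libraries was 0.538 and 0.568, against 0.253 to 0.316 for every other pair of replicates. Values that move without it are given beside the results.

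All 10 genes had a MYC region near a start site in DMSO. Such a region, merged over the DMSO peak lists and centred at most 1000 bases from an annotated start, was found for 10 of the 10 members, against 25.7% of the 13063 tested genes matched to the annotation. Because MYC peaks near the starts are part of how the set is described, nothing is read from that count. By the labels the antibody was against MYC, but the deposited lists carry HA, the tag on the fusion, in their names. The scores below are the authors', and describe peaks within 1 list.

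RAN, the GTPase itself, and KPNB1, the importin that carries cargo with a classical nuclear localisation signal, had the highest scores of the set, 260 each in DMSO library 1 (137 for RAN and 82 for KPNB1 in library 3). CSE1L scored 127 and 35, RANBP1 scored 91 and 66, and XPO1 scored 91 and 83 in DMSO libraries 1 and 3. These 5 members had a region within 1000 bases with a peak in both DMSO libraries, as 8.06% of the tested genes did. IPO5 (93), IPO4 (69) and XPO5 (60) had a peak only in library 1, the longer list with 4010 peaks, and KPNA2 (74) only in library 3 with 1519 peaks. RCC1 had 3 regions: the strongest, scoring 196 and 57, had its midpoint 1006 bases from the nearest start site, inside an intron, and the region within the limit, with a score of 85 in library 1, lay 12960 bases into the gene at an internal start. The strongest region and the other one outside the limit also lie inside the lncRNA gene SNHG3, on the same strand (chr1:28832492-28837404). Which of the 2 genes these regions belong to was not tested.

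After dTAG47 no member kept a peak within 1000 bases of a start site, in any of the 3 libraries. Such a peak was present at 2.44%, 0.0% and 0.942% of the tested genes in dTAG47 libraries 1, 2 and 3, which list 408, 7 and 193 peaks in all. The count of 0 of 10 is thus close to the share of all genes. The RCC1 region 1006 bases from its start was the exception outside the limit, with a score of 43 in dTAG47 library 1, against 196 and 57 in the DMSO libraries. That region also lies inside SNHG3. The read depth behind the lists is unknown, so a missing peak is not a measured absence of MYC.

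**Figure D1:**
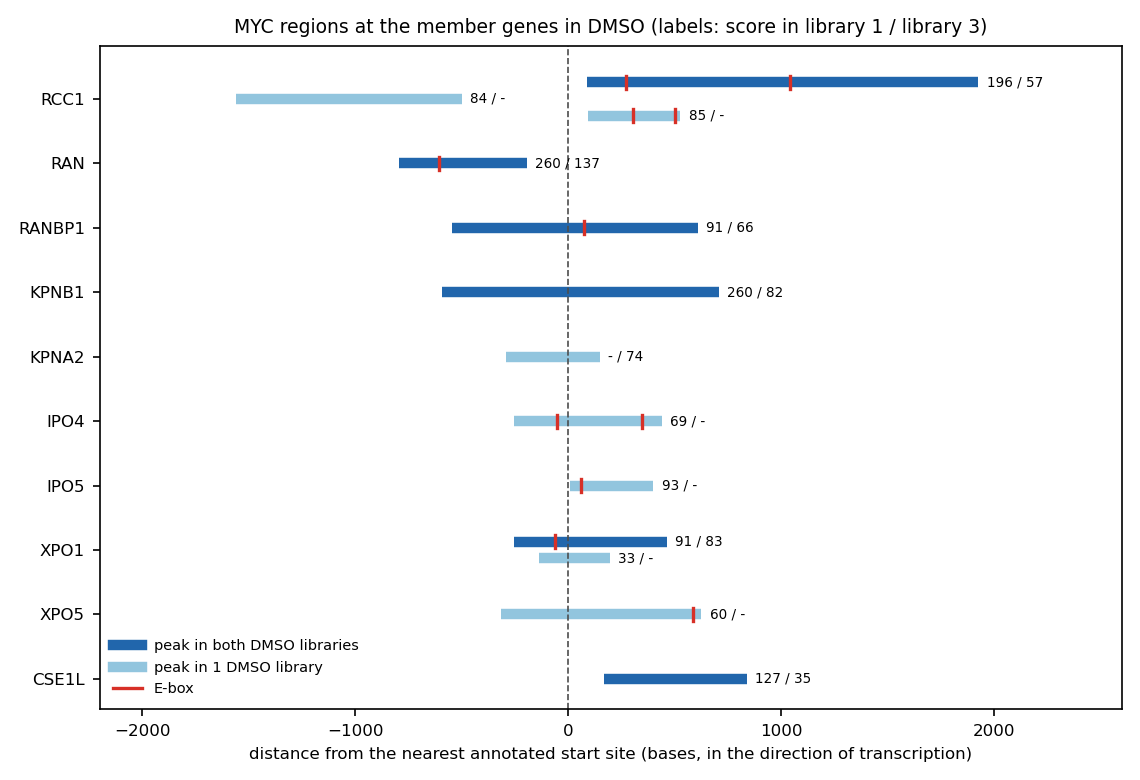
MYC regions in DMSO at the 10 genes, drawn by distance in bases from the nearest annotated start site (dashed line) in the direction of transcription; dark bars had a peak in both DMSO libraries, light bars in 1, the labels give the authors' scores in libraries 1 and 3, and ticks mark E-boxes. RAN and KPNB1 carry the highest scores (260 in library 1), and regions of KPNB1, KPNA2 and CSE1L hold no E-box.

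The canonical E-box, CACGTG, reads the same on both strands and is the sequence that MYC binds with its partner MAX. It was found in the MYC regions of 7 members, RAN, RCC1, RANBP1, IPO4, IPO5, XPO1 and XPO5, and in none of the regions of KPNB1, KPNA2 and CSE1L. Of all 4272 DMSO regions on the numbered chromosomes and X, 38.9% hold it, and of the 1029 with a peak in both libraries 62.3%. Of the matches, 1 per gene is shown, and a pair for RCC1 from 2 of its regions, because they place the motif relative to each gene. They are GRCh37 (hg19) reference sequence, 5′ to 3′ on the gene's strand, with the E-box in capitals and shorter flanks where the match lies in or beside an untranslated exon:
RAN, chr12:131357031-131357060: ttgtggggcgggCACGTGgggcgctggggg
RCC1, chr1:28833585-28833644: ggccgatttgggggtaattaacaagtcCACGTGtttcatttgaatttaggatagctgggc
RCC1, chr1:28845482-28845541: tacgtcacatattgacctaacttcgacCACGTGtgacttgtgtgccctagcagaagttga
RANBP1, chr22:20105222-20105281: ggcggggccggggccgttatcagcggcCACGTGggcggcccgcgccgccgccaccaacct
IPO4, chr14:24658034-24658063: tgtcagaacctcCACGTGctgtccctcccc
IPO5, chr13:98629251-98629310: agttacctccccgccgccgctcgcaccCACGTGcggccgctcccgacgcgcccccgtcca
XPO1, chr2:61764249-61764278: gtccgcctgcatCACGTGgccccctcggtg
XPO5, chr6:43543107-43543166: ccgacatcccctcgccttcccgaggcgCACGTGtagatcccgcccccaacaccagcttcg
The RAN match lies 432 bases after the canonical start in an untranslated exon. The RCC1 matches shown lie in introns, 1057 and 12954 bases in, the first inside its strongest region and so also inside SNHG3. The IPO4 match shown lies 24 bases before the start, IPO5's lies 23349 bases into the gene in a coding exon beside an internal start, and those of RANBP1, XPO1 and XPO5 lie in introns 1622, 1230 and 641 bases in. Within 500 bases of the canonical start 3 members (RAN, RCC1 and IPO4) hold the motif, against 20.6% of 13007 tested genes. A match describes the letters and does not show which bases MYC contacts.

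After 24 h of dTAG47 the mRNA of RCC1 and RANBP1, of the RAN cycle, and of the exporter XPO5 was lower in DTMYC cells. In all, 3 of the 9 members tested fell, by 23.0% to 34.8%, and none rose (edgeR's quasi-likelihood test, adjusted p under 0.05 over 13401 genes). In the same comparison 4.44% of all tested genes fell. For 7 of the 9 the dTAG47 libraries were all lower than the DMSO libraries, as for 20.0% of all tested genes, and the median log2 change was -0.27 over the members and 0.03 over all genes. The libraries measure shares of RNA, so a change in the number of cells or in total RNA per cell would not be seen.

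RCC1, which charges RAN with GTP on chromatin, had 158, 158 and 161 CPM in DTMYC dTAG47 libraries, against 247, 232 and 251 CPM in DTMYC DMSO libraries. The groups are far apart and each is tight. RCC1 fell by 0.62 on the log2 scale (SE 0.07; edgeR adjusted p = 0.000628). RANBP1, which helps release RAN-GTP from transport receptors, had 205, 202 and 216 CPM in DTMYC dTAG47 libraries, against 273, 263 and 285 CPM in DTMYC DMSO libraries. All 3 dTAG47 libraries lie below all 3 DMSO libraries, and RANBP1 fell by 0.40 (SE 0.07; edgeR adjusted p = 0.00522). RAN, the GTPase, had 829.8, 832 and 888 CPM in DTMYC dTAG47 libraries, against 988, 944 and 1020.4 CPM in DTMYC DMSO libraries. Those groups do not overlap either, but the log2 change of -0.21 ± 0.09 (SE) did not pass (edgeR adjusted p = 0.197).

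Among the export receptors the members differed. XPO5, which exports precursor microRNAs, had 232, 237 and 223 CPM in DTMYC dTAG47 libraries, against 306, 291 and 301 CPM in DTMYC DMSO libraries, groups that do not overlap. It fell by 0.38 on the log2 scale (SE 0.06; edgeR adjusted p = 0.00490). CSE1L, which returns importin alpha to the cytoplasm, had 412, 434 and 440.2 CPM in DTMYC dTAG47 libraries, against 502, 548 and 500.4 CPM in DTMYC DMSO libraries. All dTAG47 libraries are lower, with a log2 change of -0.27 ± 0.09 (SE) that did not pass (edgeR adjusted p = 0.0948). XPO1, the exporter of proteins with a leucine-rich export signal, had 490.2, 519 and 562 CPM in DTMYC dTAG47 libraries, against 499, 558 and 504 CPM in DTMYC DMSO libraries. Its groups overlap, and the log2 change was 0.01 with a 95% interval of -0.38 to 0.40 (edgeR adjusted p = 0.988).

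None of the import receptors passed. IPO5, which imports ribosomal proteins and histones among other cargo, had 716, 750.4 and 754 CPM in DTMYC dTAG47 libraries, against 897, 940.4 and 932 CPM in DTMYC DMSO libraries. The dTAG47 libraries are all lower, and the log2 change was -0.32 ± 0.13 (SE; edgeR adjusted p = 0.162). KPNB1, importin beta, had 887, 895 and 874 CPM in DTMYC dTAG47 libraries, against 912, 906 and 942 CPM in DTMYC DMSO libraries. These groups do not overlap but lie close, with a log2 change of -0.06 ± 0.15 (SE; edgeR adjusted p = 0.878). IPO4, an importin for histones and ribosomal proteins, had 1.41, 1.52 and 1.49 CPM in DTMYC dTAG47 libraries, against 1.88, 1.37 and 1.84 CPM in DTMYC DMSO libraries, which overlap, with a log2 change of -0.21 ± 0.19 (SE; edgeR adjusted p = 0.578). Its counts were only 40 to 105 per library, and another entry of the table, with 0 to 6 counts, overlaps 8570 bases of it, so the IPO4 mRNA level is uncertain. Entries of other genes also overlap 2 of the members that fell, POLR1C over 7252 bases of XPO5 (1205 to 2339 counts) and TRMT2A over 1455 bases of RANBP1 (821 to 2238 counts). Whether the counting used strand is not given in the sources used here, so reads of the shared bases cannot be told apart. These entries are of protein-coding genes only, so the lncRNA gene SNHG3, inside the RCC1 interval on the same strand, is not among them. Whether SNHG3 reads enter the RCC1 mRNA counts was not tested.

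**Figure D2:**
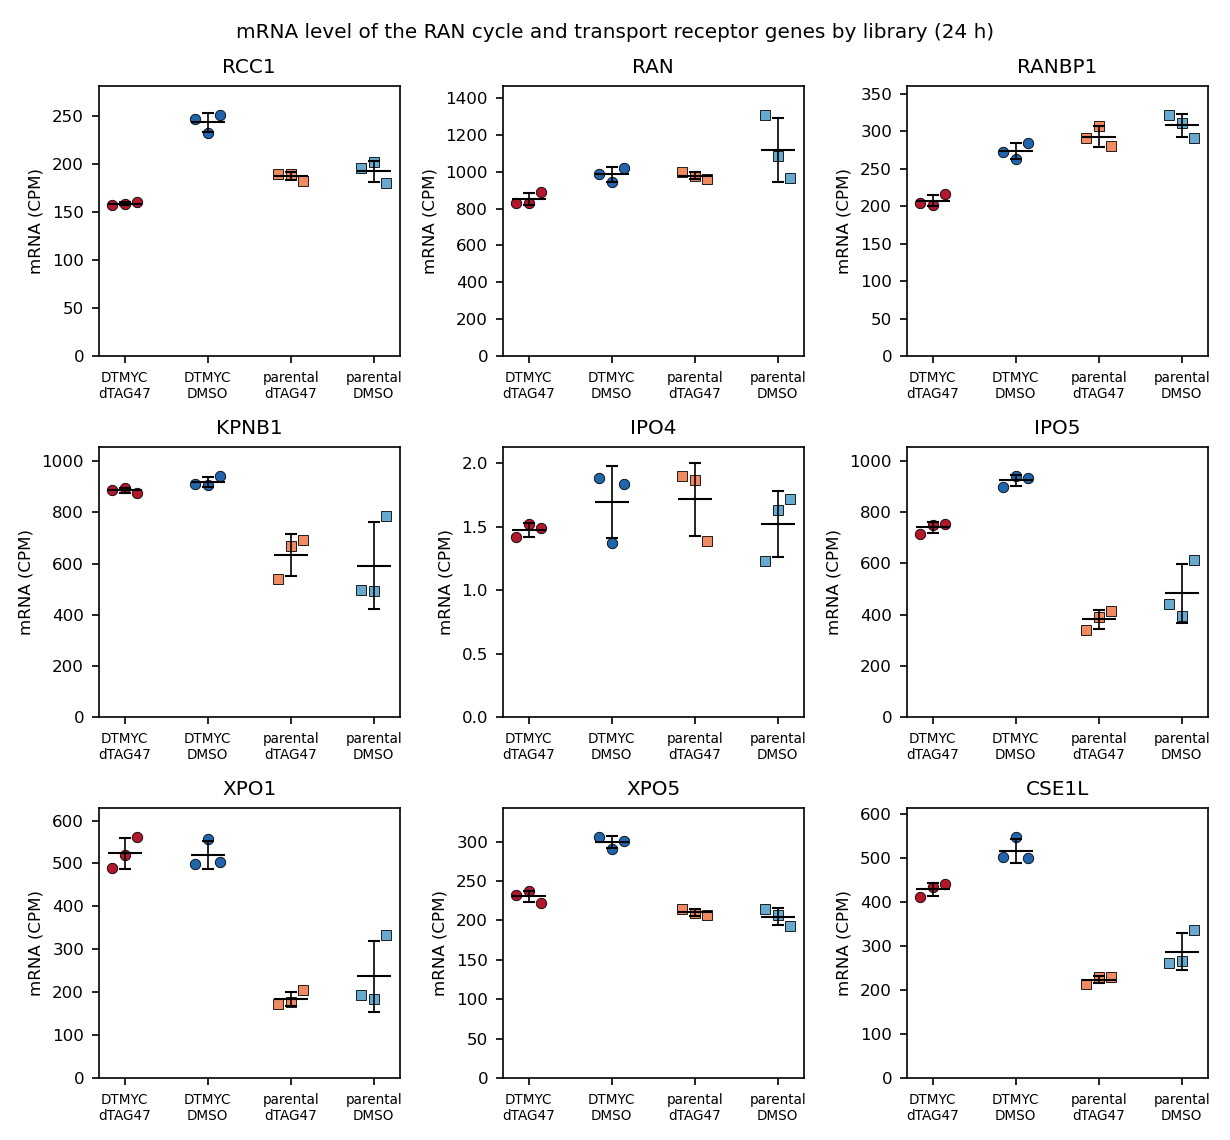
mRNA level in CPM of the 9 members with counts, 1 panel per gene on a linear axis from 0, with 3 libraries per group (points), the mean (line) and SD (bars), DTMYC cells at left and parental cells at right. RCC1, RANBP1 and XPO5 are lower in every DTMYC dTAG47 library than in every DTMYC DMSO library, and parental DMSO library 3 is the highest parental library for XPO1, KPNB1, IPO5 and CSE1L.

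The number of members that passed changes with 1 parental library, which enters the fit through the shared spread and the scaling. Without parental DMSO library 3, 6 members fell in DTMYC cells (RCC1, RANBP1, RAN, XPO5, CSE1L and IPO5), with 3951 genes called in either direction (2240 of them lower), and the same 6 fell when only the DTMYC libraries were fitted (4594 genes, 2509 of them lower). RAN gave -0.25, CSE1L -0.30 and IPO5 -0.35 on the log2 scale without that library, against -0.21, -0.27 and -0.32 with it.

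KPNA2, an importin alpha, the adaptor that recognises the nuclear localisation signal, is listed at 0 in all 12 RNA-seq libraries. Its PRO-seq entry holds 1 gene body count in DMSO library 1 and 0 in the other 3 libraries. The neighbouring PRO-seq entries C17orf58, LOC100499466, LOC440461, AMZ2 and SLC16A6 are at 0 as well, and AMZ2 has 0 to 1 counts in RNA-seq. BPTF and NOL11 on one side and WIPI1 on the other have 1896 to 5708, 2060 to 5763 and 188 to 929 RNA-seq counts. An ATAC-seq peak stood at the KPNA2 start in 6 of 6 libraries. Of its exon windows of 50 bases, 14.3% occur elsewhere in the genome. ARSG, whose interval lies between AMZ2 and WIPI1 and contains SLC16A6, has 83 to 405 RNA-seq and 258 to 462 PRO-seq counts, so the empty entries are not an unbroken run. The cause of the empty entries on chromosome 17 was not tested, and no level of KPNA2 is given.

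Levels of different genes can be compared only per length. In mean CPM per kilobase of the table's gene length, the order in DTMYC dTAG47 libraries was RAN at 176, KPNB1 at 115.3, CSE1L at 115.1, IPO5 at 76.5, RANBP1 at 45.0, XPO1 at 44.7, RCC1 at 40.9, XPO5 at 27.1 and IPO4 last. KPNB1 and CSE1L did not differ beyond their spread there, nor did RANBP1 and XPO1. In DTMYC DMSO libraries the order was RAN at 204, CSE1L at 139, KPNB1 at 120, IPO5 at 95.5, RCC1 at 62.7, RANBP1 at 59.3, XPO1 at 44.4, XPO5 at 35.1 and IPO4 at 0.338. RCC1 and RANBP1 did not differ beyond their spread in DMSO. RCC1 thus stood above XPO1 in DMSO and below it in dTAG47. The order between genes rests on the listed gene lengths (3888 bases for RCC1 and 11708 for XPO1), which need not be those of the expressed mRNA. Other lengths were not tried.

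In parental cells, which carry no tagged MYC, none of the 9 members passed after dTAG47. By edgeR 17 genes, or 0.127%, passed in either direction, 2 members (CSE1L and IPO5) and 2074 of all tested genes had an unadjusted p under 0.05, and DESeq2 called 1 member, CSE1L, among 299 genes. RCC1 had 190.4, 190.2 and 183 CPM in parental dTAG47 libraries, against 196, 202 and 181 CPM in parental DMSO libraries, which overlap (log2 change -0.04 ± 0.07, SE). XPO5 had 215, 209.7 and 207 CPM in parental dTAG47 libraries, against 214, 207 and 193 CPM in parental DMSO libraries, with a log2 change of 0.04 ± 0.06 (SE). RANBP1 had 292, 308 and 280.3 CPM in parental dTAG47 libraries, against 322, 311 and 291 CPM in parental DMSO libraries, and its log2 change was -0.07 ± 0.07 (SE). These 3 overlap between the parental groups.

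CSE1L was the 1 member with every parental dTAG47 library lower, as for 6.63% of all tested genes. It had 214, 229 and 229 CPM in parental dTAG47 libraries, against 261, 265 and 336 CPM in parental DMSO libraries. The log2 change of -0.36 ± 0.09 (SE, edgeR adjusted p = 0.120) stands beside -0.27 in DTMYC cells. DMSO library 3 gave the 336 CPM, and without it the changes were -0.24 in parental and -0.30 in DTMYC cells. RAN had 998, 979 and 958 CPM in parental dTAG47 libraries, against 1306, 1086 and 963 CPM in parental DMSO libraries, which overlap, with a log2 change of -0.19 ± 0.09 (SE).

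IPO5 had 341, 391 and 413 CPM in parental dTAG47 libraries, against 439.6, 395 and 613 CPM in parental DMSO libraries. XPO1 had 173, 177 and 205 CPM in parental dTAG47 libraries, against 194, 185 and 333 CPM in parental DMSO libraries. KPNB1 had 541, 669 and 690.3 CPM in parental dTAG47 libraries, against 497, 492 and 787 CPM in parental DMSO libraries. In all 3, DMSO library 3 is the highest of its group. The log2 changes were -0.34 ± 0.13, -0.36 ± 0.18 and 0.10 ± 0.15 (SE), and IPO4 gave 0.18 ± 0.18 (SE). Without parental DMSO library 3 IPO5 gave only -0.14 and XPO1 -0.046. Without that library 3 members passed in parental cells, CSE1L and RAN lower and KPNB1 higher (log2 change 0.34, edgeR adjusted p = 0.00371), among 2718 genes called.

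The difference between the responses of the 2 lines was tested directly. RCC1 fell more in DTMYC cells than in parental cells, by 0.58 on the log2 scale (SE 0.09; edgeR adjusted p = 0.0206), and so did XPO5, by 0.42 (SE 0.09; adjusted p = 0.0461). Of all tested genes 0.59% passed in that direction. The difference for RANBP1 was -0.33 ± 0.10 (SE; edgeR adjusted p = 0.0985). For RAN it was -0.02, for IPO5 0.02 and for CSE1L 0.09, with 95% intervals of -0.31 to 0.27, -0.39 to 0.42 and -0.19 to 0.38. For KPNB1, IPO4 and XPO1 it was -0.15, -0.39 and 0.37, with edgeR adjusted p of 0.733, 0.439 and 0.443. Both calls depend on single libraries: neither passed without any 1 of the 3 DTMYC dTAG47, the 3 parental dTAG47 or DTMYC DMSO libraries 1 and 3, although the differences stayed at -0.61 to -0.56 for RCC1 and -0.45 to -0.39 for XPO5 over all leave-outs. Without parental DMSO library 3 there were 4 calls (RCC1, XPO5, RANBP1 and KPNB1), all more negative in DTMYC cells, among 1295 such genes, and with RLE size factors or no filter on low counts 1, RCC1. The differences for RAN, IPO5 and CSE1L without parental DMSO library 3 were 0.05, -0.21 and -0.06, and none of these passed.

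**Figure D3:**
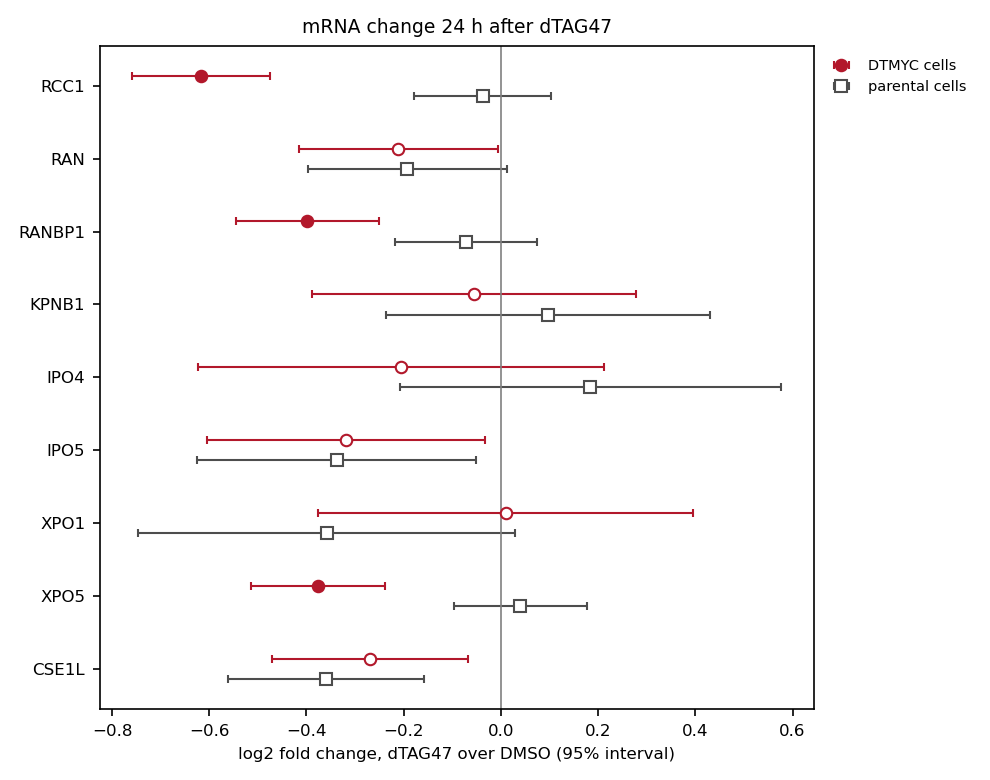
Log2 fold change of mRNA, dTAG47 over DMSO, with 95% intervals from edgeR, in DTMYC cells (circles, above) and parental cells (squares, below) for 9 members; filled symbols passed an adjusted p of 0.05. RCC1 (-0.62 and -0.04), RANBP1 (-0.40 and -0.07) and XPO5 (-0.38 and 0.04) passed in DTMYC cells and not in parental cells. CSE1L (-0.27 and -0.36) and IPO5 (-0.32 and -0.34) passed in neither. Without parental DMSO library 3 the parental changes of CSE1L and IPO5 were -0.24 and -0.14.

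Between the lines, the receptors XPO1, IPO5, CSE1L and KPNB1 were higher in DTMYC than in parental cells in both treatments, and RANBP1 was lower in dTAG47. These comparisons use the same libraries as those of the treatments. In DMSO, 6 members were higher in DTMYC than in parental cells, as were 36.0% of all tested genes, and 1 was lower, as were 37.3%. XPO1 was higher by 1.13 on the log2 scale (SE 0.18), IPO5 by 0.94 (SE 0.13), CSE1L by 0.85 (SE 0.09), KPNB1 by 0.64 (SE 0.15), XPO5 by 0.55 (SE 0.06) and RCC1 by 0.34 (SE 0.07), whereas RANBP1 fell by 0.17 (SE 0.07; edgeR adjusted p = 0.0373). RAN (-0.18) and IPO4 (0.16) did not pass. In dTAG47, 4 members were higher in DTMYC than in parental cells (37.4% of all tested genes): XPO1 by 1.50, IPO5 by 0.96, CSE1L by 0.94 and KPNB1 by 0.48. There 2 were lower (38.9% of all tested genes), RANBP1 by 0.50 and RCC1 by 0.24 on the log2 scale. With shares of called genes this high on both sides, the members' counts are not set apart from other genes. The RANBP1 call in DMSO was lost with only the DMSO libraries, RLE size factors, no count filter, a replicate block or DESeq2, and on leaving out any 1 of 7 of the 12 libraries (adjusted p 0.0534 to 0.157 over these). The KPNB1 call in dTAG47 was lost without parental dTAG47 library 1 (edgeR adjusted p = 0.0583). Other calls were gained. In DMSO RAN was lower without parental DMSO library 3 (log2 difference -0.29, edgeR adjusted p = 0.000712). In dTAG47 RAN was lower with only the dTAG47 libraries, or without parental DMSO library 1 or 3 (edgeR adjusted p 0.00106 to 0.0123). With only the dTAG47 libraries XPO5 was higher (log2 difference 0.13, edgeR adjusted p = 0.024). The steps of the engineering, which together set the lines apart, cannot be told apart here.

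PRO-seq, which maps engaged RNA polymerase, gave no call for any member at 4 h in a fit that does not pair the libraries. In gene bodies 8 of the 9 members tested had a negative log2 change and the median was -0.31, against 0.02 over all 13397 genes tested. No member and no gene passed edgeR's test (0.0%), although 3 members and 1298 genes had an unadjusted p under 0.05. DESeq2 called 67 genes and none of the members. Both dTAG47 libraries lay below both DMSO libraries for 5 of the 9, as for 19.3% of all genes. With the replicate number as a block, 6 members passed in gene bodies, all lower (4360 genes called), and 2 near promoters (282 genes). The labels do not say that equal numbers mark shared material, and so few libraries cannot decide it.

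XPO5 had gene body levels of 171 and 134 CPM in dTAG47, against 255 and 197 CPM in DMSO. Its groups do not overlap, and the log2 change was -0.57 ± 0.17 (SE; edgeR unadjusted p = 0.0150, adjusted p = 0.437). IPO5 had 222 and 212 CPM in dTAG47, against 300.0 and 277 CPM in DMSO. It had the smallest unadjusted p of the set, 0.00291 by edgeR, with a log2 change of -0.41 ± 0.08 (SE; adjusted p = 0.409). RANBP1 had 59.3 and 50.3 CPM in dTAG47, against 77.3 and 64.6 CPM in DMSO, apart by little, with a log2 change of -0.37 ± 0.14 (SE). IPO4 had 24.9 and 18.4 CPM in dTAG47, against 39.1 and 25.9 CPM in DMSO, where only the DMSO library 2 value comes close to dTAG47, with a log2 change of -0.58 ± 0.24 (SE). CSE1L had 256 and 217 CPM in dTAG47, against 288 and 257 CPM in DMSO, which do not overlap (log2 change -0.21 ± 0.11, SE).

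RAN had 63.1 and 49.9 CPM in dTAG47, against 78.1 and 61.8 CPM in DMSO, which overlap, with a log2 change of -0.31 ± 0.17 (SE). KPNB1 had 339 and 293 CPM in dTAG47, against 355 and 297 CPM in DMSO, also overlapping (-0.04 ± 0.12, SE). XPO1 had 419 and 416 CPM in dTAG47, against 389 and 392 CPM in DMSO. It was the 1 member with both dTAG47 libraries higher, at a log2 change of 0.10 ± 0.07 (SE).

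RCC1, the gene with the largest mRNA change, had gene body levels of 1219 and 1122 CPM in dTAG47, against 1352 and 1147 CPM in DMSO. These overlap, and the log2 change was -0.09 ± 0.11 (SE; edgeR adjusted p = 0.828). The PRO-seq interval of RCC1 also contains the lncRNA gene SNHG3 and the small nucleolar RNA genes SNORA73B and snoU13 on the same strand, and its density, 36.3 CPM per kilobase in dTAG47 and 38.7 in DMSO, was the highest of the set. How much of it belongs to RCC1 was not tested.

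Near promoters 8 members could be tested, and all 8 had a negative log2 change, except that KPNB1 and CSE1L turned positive with scaling factors from the promoter-proximal counts themselves. The median was -0.30, beside -0.17 over all 10217 genes tested. None passed edgeR's test, nor did any gene (0.0%), with 2 members and 385 genes at an unadjusted p under 0.05 and 2 genes called by DESeq2. Both dTAG47 libraries were below both DMSO libraries for 5 of the 8, as for 26.0% of all genes. XPO5 had 1.78 and 2.54 CPM in dTAG47, against 5.23 and 5.21 CPM in DMSO, groups well apart, with a log2 change of -1.28 ± 0.36 (SE; edgeR unadjusted p = 0.000426, adjusted p = 0.752). These levels rest on 38 and 46 counts in dTAG47, against 120 and 104 in DMSO. IPO4 had 11.6 and 10.4 CPM in dTAG47, against 20.8 and 17.7 CPM in DMSO, with a log2 change of -0.81 ± 0.34 (SE). Both of these members also had a negative change in gene bodies.

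RANBP1 (-0.56), RAN (-0.36), XPO1 (-0.24), RCC1 (-0.21), KPNB1 (-0.13) and CSE1L (-0.08) followed, each with an SE of 0.33 to 0.35. With scaling factors from the promoter-proximal counts themselves KPNB1 gave 0.03 and CSE1L 0.10. IPO5 has 0 promoter-proximal counts in all 4 libraries. The authors' start for IPO5 lies 23491 bases before the midpoint of its MYC region, which sits at an internal start, so its promoter-proximal window did not cover the place where its MYC region was found. The ratio of promoter-proximal to gene body counts, a measure of pausing, passed for no member and no gene (0.0%; 158 genes at an unadjusted p under 0.05). Its median log2 change was -0.16 over 8 members and -0.17 over all genes, with XPO5 at -0.72 ± 0.38 (SE).

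**Figure D4:**
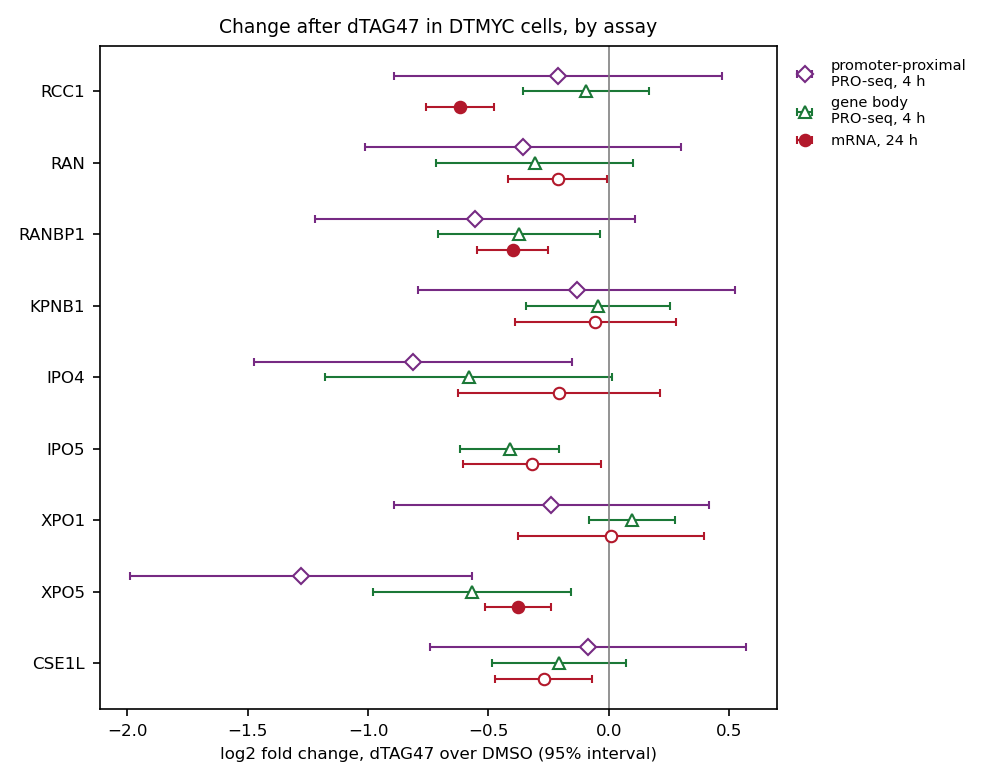
Log2 fold change, dTAG47 over DMSO, in DTMYC cells with 95% intervals from edgeR, for promoter-proximal PRO-seq (diamonds) and gene body PRO-seq (triangles) at 4 h and for mRNA (circles) at 24 h; filled symbols passed an adjusted p of 0.05. XPO5 (-1.28, -0.57 and -0.38) lies below 0 in all 3, as do RCC1, RAN, RANBP1, KPNB1, IPO4 and CSE1L. RCC1 has its largest change in mRNA (-0.62).

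ATAC-seq, which marks open chromatin, listed peaks at the starts in both treatments. An ATAC-seq peak had its midpoint within 1000 bases of a start site in all 6 libraries for 10 of the 10 members, as for 76.7% of the tested genes. For IPO5 the highest score was 595, 420 and 615 in dTAG47 libraries, against 833, 562 and 252 in DMSO libraries. For KPNB1 it was 471, 241 and 711 in dTAG47, against 867, 376 and 179 in DMSO. RCC1 had lower scores than these, 42, 74 and 107 in dTAG47, against 105, 91 and 28 in DMSO. Its highest peak lay at different start sites in different libraries, so the RCC1 scores do not follow a single site. The scores of the groups overlap for every member. DMSO library 3, with 28429 peaks the shortest list, gave the lowest score of the 6 libraries for every member but IPO4. Lists of different length do not show a change in height.

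The wider transport machinery, listed with earlier results of these data known, was tested in the same fit. Of 26 other receptors and RAN regulators tested, 1 fell in DTMYC cells, where 4.44% of all tested genes did: XPO6, an exporter of actin with profilin, averaged 292 ± 8.36 CPM in dTAG47 and 352 ± 10.4 CPM in DMSO (SD, n = 3 each), a log2 change of -0.27 ± 0.08 (SE; edgeR adjusted p = 0.0440). That call was lost (adjusted p 0.069 to 0.146) without any 1 library other than a parental DMSO one, and with RLE size factors, no count filter or a replicate block (adjusted p 0.0767, 0.0599 and 0.0521). DESeq2 called 2 of the 26. None rose, and the median log2 change of the 26 was -0.08. Of 31 nuclear pore genes none passed by edgeR, 4 had an unadjusted p under 0.05 and DESeq2 called 1. The most abundant were TPR of the nuclear basket, at 353 CPM in dTAG47 and 349 CPM in DMSO, and NUP98, at 346 CPM in dTAG47 and 376 CPM in DMSO. The median over the pore genes was -0.11. Without parental DMSO library 3 the calls were 9 among the other receptors and 14 among the pore genes, and fitting only the DTMYC libraries gave 11 and 15, all of them lower. In these settings 2240 and 2509 of all genes were called lower.

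In parental cells none of the 26 receptors passed by edgeR (2 at an unadjusted p under 0.05) or DESeq2, and 1 pore gene rose, POM121C, which averaged 26.5 CPM in dTAG47 and 13.4 CPM in DMSO (log2 change 0.99, edgeR adjusted p = 0.0090), a call lost when only the parental libraries were fitted (adjusted p = 0.334) or without any 1 parental dTAG47 library (0.0559 to 0.0858). It was named after its values were seen, and POM121 genes have near-identical copies that share reads, so its count is uncertain. When parental DMSO library 3 was left out, 4 receptors (2 of them lower) and 10 pore genes (4 lower) passed in parental cells. In that setting 2718 of all genes were called, 1478 of them lower.

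The genes whose mRNA most resembled the mean of the 8 members above 5 CPM over the 12 RNA-seq libraries were found by Pearson's r of log2 CPM, among 9949 genes with a mean of at least 5 CPM. They were GRPEL1 (r = 0.99), SETD6 (0.98), SCO1 (0.97), MATK (0.97) and SCLY (0.96). The 12 libraries fall into 2 lines, so the points are not independent. Each of the 8 members is itself part of that mean, so the members' r cannot be set beside those of other genes. Of the members XPO5 (0.92), IPO5 (0.85) and CSE1L (0.84) followed that mean most closely, and RAN (0.01) and RANBP1 (-0.06) did not follow it. Without parental DMSO library 3 the 5 genes had r of 0.96 to 0.99, and the 5 most alike then were GRPEL1, SETD6, MATK, CCT2 (0.98) and CLNS1A (0.98), without SCO1 and SCLY.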

How the data were processed

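Per the submitters' processing notes the build was hg19 and the tools were cutadapt, STAR and featureCounts, Bowtie2 with MACS2 and DiffBind, and DESeq2. Which tool made which file, and its version, is not given in the sources used here. The RNA-seq and PRO-seq values are raw read counts per gene, as deposited by the authors. The peak lists give each peak the score that the authors deposited, 10 times −log10 of q as MACS2 writes it, called for each library alone, with no read depth. The gene body density that the authors deposited, the gene body count divided by a length, served only to work out that length.

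Counts were fitted with edgeR 4.0.16 (R 4.3.3; TMM scaling, filterByExpr, glmQLFit and glmQLFTest, two-sided, Benjamini-Hochberg over all genes tested, threshold 0.05), all 12 RNA-seq libraries in one fit and all 4 PRO-seq libraries in another. Promoter-proximal counts used the gene body scaling. CPM are TMM-scaled. The fits tested 13401 genes in RNA-seq, 13397 in gene bodies, 10217 near promoters and 10120 for pausing. Intervals are at 95%. DESeq2 1.42.0 was an alternative. The script was tested on simulated data. The 2 MYC ChIP-seq DMSO lists were merged into 4437 regions, placed against GRCh37 with GENCODE start sites and read with pysam 0.24.0. No peak lay beyond a chromosome end, and 7044 peaks lay on contigs outside the primary assembly.

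All 10 members are named, with up to 4 genes in each direction from each wider list past the threshold in DTMYC cells, or the 2 most abundant where none passed. The members and lists were chosen with earlier results of these data known. The alternatives were other size factors, no count filter, DESeq2, only the groups compared, a replicate block, leaving out each library, and other windows and scores for peaks.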

Additional observations from a re-analysis of the deposited data

Results flagged for a closer look

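The mRNA responses of RCC1 and XPO5 to dTAG47 differed between the lines by a test of the difference itself. For RCC1 the log2 change was -0.62 in DTMYC cells and -0.04 in parental cells, a difference of -0.58 (edgeR adjusted p = 0.0206). For XPO5 it was -0.38 in DTMYC cells and 0.04 in parental cells, a difference of -0.42 (edgeR adjusted p = 0.0461). The RCC1 call was lost on leaving out any 1 of 8 of the 12 libraries (adjusted p 0.0697 to 0.0941). The XPO5 call was lost on leaving out any 1 of 9 (0.0854 to 0.142), and with RLE size factors, no count filter or a replicate block (0.0822, 0.0847 and 0.0662). SNHG3 lies inside the RCC1 interval on the same strand, and whether its reads enter the RCC1 counts was not tested.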

How the results depend on the processing

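Over single genes, 934 of 1048 results under an alternative kept their direction and their side of the threshold, 36 changed sign, 29 passed only under the alternative and 49 no longer passed. RNA-seq counts of members called were as follows. In DTMYC cells 3 fell, and 6 with only the 2 groups compared. In parental cells 0 passed, and 1 with DESeq2. The difference between lines had 2, and 1 with RLE size factors, without a count filter or with a replicate block. Leaving out single libraries gave 3 to 6, 0 to 3 and 0 to 4 members in these 3 comparisons, the highest each time without parental DMSO library 3. Between treatments, RNA-seq libraries of equal number gave r of 0.324, 0.0483 and 0.367 in parental cells, and 0.0846, -0.011 and -0.0476 in DTMYC cells. In parental cells each dTAG47 library correlated best with the DMSO library of its number, but DTMYC dTAG47 libraries 2 and 3 did not. PRO-seq has only 2 pairs, and with 2 libraries per group their r must be equal, so the value of 0.639 is a single number. With the replicate block, PRO-seq gene bodies gave 6 members (4360 genes) and promoter-proximal counts gave 2 (282 genes), against 0 without it. Leaving out single PRO-seq libraries gave 0 to 1 in gene bodies (XPO5, without DMSO library 2 or without dTAG47 library 1).

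Signs changed as follows. In DTMYC mRNA, XPO1 gave -0.00389 without a filter and -0.019 with only 2 groups (-0.045 to 0.062 leaving out libraries), and TPR -0.014 (-0.020 to 0.030). In parental mRNA KPNB1 ranged over -0.019 to 0.345 and XPO5 over -0.010 to 0.073. In the difference between lines RAN ranged over -0.146 to 0.054, IPO5 over -0.213 to 0.145 and CSE1L over -0.061 to 0.155. In gene bodies RCC1 ranged over -0.209 to 0.031 and KPNB1 over -0.175 to 0.090. Near promoters RCC1 ranged over -0.566 to 0.045 and KPNB1 over -0.358 to 0.036, and their own TMM and DESeq2 gave 0.0335 and 0.0336 for KPNB1 and 0.0992 and 0.0996 for CSE1L. In pausing RAN ranged over -0.468 to 0.339, RCC1 over -0.514 to 0.235, KPNB1 over -0.410 to 0.209 and CSE1L over -0.080 to 0.331. Apart from fewer genes or samples, the cause was not tested.

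MYC regions stood at 9 members within 500 bases, and at 23.3% of the tested genes. They stood at 7 members without DMSO library 1 (10.0% of the tested genes) and at 9 without DMSO library 3 (24.0%). Within 5000 bases 1 member, RCC1, kept a peak after dTAG47, at the region that also lies inside SNHG3, and 0 to 1 without a DMSO library. CACGTG was at 1 member within 100 bases of the canonical start, and at 6.55% of the tested genes. PRO-seq has 2 libraries per group, so its precision is low, and intervals cover the spread between these libraries only. The genes most like the members without parental DMSO library 3 are an alternative chosen after seeing the data.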
